A study of Oryza sativa with 8 samples.

Results

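The comparison described here is the difference between 2 rice lines in their transcript response to salt: the change of each transcript in Pokkali (8 h minus 0 h) less its change in Nipponbare (8 h minus 0 h). Both changes are on the log2 scale, so a difference of 1 means that the ratio of 8 h to 0 h was 2-fold higher in Pokkali. A gene locus was included when its probe was well above the background of the array on at least 1 array of every group, so that both changes were measured. This held for 41371 of the 52795 loci on the arrays (78.4%), of which 38601 were above background on all 8 arrays. Of the 11424 loci left out, 5147 were dark in all 4 groups. Another 2035 were dark in at least 1 Pokkali group and in no Nipponbare group, and 1426 were dark in at least 1 Nipponbare group and in no Pokkali group. No probe sequence was used here, so a lower signal in one line cannot be told apart from a sequence difference under the probe.

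The groups were Pokkali at 8 h, Pokkali at 0 h, Nipponbare at 8 h and Nipponbare at 0 h, each with 2 biological replicates on an array of its own. Pokkali is an indica line and Nipponbare a japonica line, and RNA came from whole seedlings aged 14 days that were placed in 250 mM NaCl. No group held seedlings grown on for 8 h in the absence of salt, so a salt change as used here also holds the time of day. In whole seedlings, fewer cells of a type and less RNA per cell cannot be told apart.

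As background, Pokkali is a landrace widely used as a source of salt tolerance in rice breeding, and Nipponbare is the line of the rice reference genome. Salt first limits water uptake and then loads sodium into the shoot. Plants answer with abscisic acid signalling, in which SnRK2 kinases are released from PP2C phosphatases and activate bZIP transcription factors. They also make protective LEA and dehydrin proteins, regulate the aquaporins that carry water across membranes, and move sodium and potassium with HKT, HAK and NHX type transporters.

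The share of non-control spots that stood well above background ran from 81.0% to 85.5% over the 8 arrays, and the 75th percentile of intensity from 674 to 950. All levels below are log2 signals with that percentile set to 0 on each array, so a level of -2 is a signal below that mark, and levels of different genes are not set against each other. Replicates differed by a typical SD of 0.28 at 8 h and 0.43 at 0 h in Pokkali, and by 0.28 at 8 h and 0.42 at 0 h in Nipponbare. The green tissue genes CAB2R, CAB1R and RCABP89, of the light harvesting antenna, had a mean level of 2.85 and 2.93 in Pokkali at 8 h and 3.44 and 3.66 at 0 h. In Nipponbare it was 3.09 and 3.06 at 8 h and 3.77 and 3.80 at 0 h. The silicon transporters LSI1 and LSI2, which mark roots, had a mean of -2.37 and -2.03 in Pokkali at 8 h and -1.33 and -1.59 at 0 h, against -2.49 and -2.78 in Nipponbare at 8 h and -1.82 and -2.01 at 0 h. The difference of salt change was -0.10 for LSI1 and 0.06 for LSI2, and neither passed the test. The part of tissue makeup in the results below was not tested.

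At most loci the difference between the lines was under 1 log2 unit in size, and few differences passed the test. The salt change itself passed in Pokkali for 11642 loci (28.1%), with 15.4% of loci rising and 12.7% falling, at a Benjamini-Hochberg adjusted p under 0.05 in limma. It passed in Nipponbare for 11289 (27.3%), with 14.8% rising and 12.5% falling. Of all these, 7723 loci passed in both lines, 7668 of them in the same direction, which is 65.9% of the Pokkali calls and 67.9% of the Nipponbare calls. The other 55 changed in opposite directions. The difference between the 2 changes passed for 40 loci (0.0967%), with a higher change in Pokkali at 21 (0.0508%) and a lower one at 19 (0.0459%). At an unadjusted p under 0.05 there were 3823 loci (9.24%).

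Over all measured loci the difference had a median of 0 and lay between -0.75 and 0.91 from the 5th to the 95th percentile. Its SD over loci was 0.56, against 0.96 for the salt change in Pokkali and 0.96 in Nipponbare. At 2814 loci (6.80%) it was at least 1 in size. The 95% interval of a locus reached a median of 0.73 to either side of its value. From the 10th to the 90th percentile of loci this reach was 0.49 to 1.47. These intervals are not adjusted for the 41371 loci tested. A difference had to be larger than its interval's reach to pass, since the last called locus had an unadjusted p of 4.63e-05 in limma. The 40 called differences were between 1.86 and 6.73 in size, with a median of 3.23 (9.35-fold). Their adjusted p in limma lay in a narrow band, from 0.0366 to 0.0479, and the next locus had 0.0507. With the replicate number added to the model as a block, 10 loci passed. With such a block within each time, 0 passed. The number of calls hung on single arrays: it was 0 when any 8 h array or Nipponbare 0 h replicate 2 was left out. It was 90 without replicate 1 and 8 without replicate 2 of Pokkali at 0 h, and 31 without Nipponbare 0 h replicate 1.

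**Figure D1:**
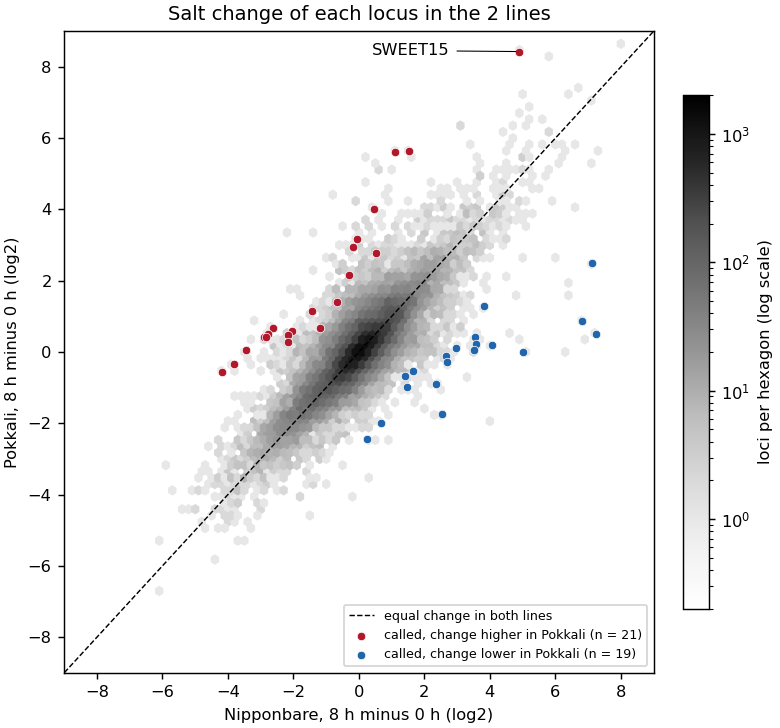
Salt change (8 h minus 0 h, log2) of each of the 41371 loci in Pokkali (vertical axis) and Nipponbare (horizontal axis), as counts of loci per hexagon on a log grey scale. The 40 loci with a called difference lie off the dashed line of equal change, 21 above it (red) and 19 below it (blue), and SWEET15 is marked.

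The called locus with a gene name was SWEET15 (LOC_Os02g30910, on chromosome 2), a member of the SWEET family of membrane proteins that let sugars, sucrose among them, leave cells. Its level was 5.71 and 5.87 in Pokkali at 8 h and -2.66 and -2.62 in Pokkali at 0 h. In Nipponbare it was 2.60 and 3.14 at 8 h and -2.17 and -1.88 at 0 h. The transcript was thus higher at 8 h in both lines, the 8 h levels of the lines did not overlap, and the 0 h levels were lower in Pokkali by less than a log2 unit.

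The salt change of SWEET15 was 8.43 in Pokkali, or 345-fold (SE 0.22, n = 2 arrays per group, adjusted p = 0.000248 in limma), and 4.90 in Nipponbare, or 29.8-fold (SE 0.22, adjusted p = 0.000686). The difference was 3.53, an 11.6-fold higher ratio in Pokkali (SE 0.30, 95% interval 2.80 to 4.26, adjusted p = 0.0413). Pokkali exceeded Nipponbare by 2.92 at 8 h (adjusted p = 0.000398), whereas the lines differed by -0.61 at 0 h (adjusted p = 0.121). The call held without Pokkali 0 h replicate 1 (adjusted p = 0.046) and was lost without any other array (adjusted p = 0.0598 to 0.237); the difference itself stayed between 3.27 and 3.80.

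Other genes of sugar transport and use did not pass the test of the difference. Of the 8 measured members of this list 5 had a value above 0 (49.9% of all loci), with a median of 0.52. With salt, 4 rose and 1 fell in each line (15.4% and 12.7% of all loci in Pokkali, 14.8% and 12.5% in Nipponbare). SUS1 (LOC_Os03g28330), a sucrose synthase that cleaves sucrose, fell less in Pokkali, at 0.88 and 0.42 at 8 h and 1.75 and 2.02 at 0 h. In Nipponbare SUS1 was at -1.34 and -1.60 at 8 h and 0.88 and 0.79 at 0 h. It fell 2.35-fold in Pokkali and 4.94-fold in Nipponbare, a difference of 1.07 on the log2 scale (95% interval 0.36 to 1.78, adjusted p = 0.318). SUT1 (LOC_Os03g07480), which loads sucrose into cells, had a change of -0.07 in Pokkali that did not pass and rose by 0.48 in Nipponbare. Its difference was -0.55 (adjusted p = 0.413 in limma). The SWEET genes SWEET13 (LOC_Os12g29220) and SWEET14 (LOC_Os11g31190) had differences of 0.75 and 0.88 and SWEET4 (LOC_Os02g19820) one of -0.14, with adjusted p values of 0.664, 0.731 and 0.95. RAMY3D (LOC_Os08g36910), a starch-degrading alpha-amylase, rose by 3.65 in Pokkali and 3.94 in Nipponbare, a difference of -0.29 (95% interval -2.02 to 1.44).

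Most called loci carry no gene name in the sources used here, and the 2 with the largest difference in each direction are described. LOC_Os08g30800 (chromosome 8) was at 0.01 and -0.07 in Pokkali at 8 h and -5.24 and -6.07 at 0 h, against -3.90 and -4.09 in Nipponbare at 8 h and -4.89 and -5.28 at 0 h. It rose by 5.62 in Pokkali and by 1.09 in Nipponbare, a difference of 4.53 (SE 0.41, adjusted p = 0.0413), and was above background on 7 of 8 arrays. With normexp background correction the difference was 2.83. LOC_Os09g09650 (chromosome 9) was at 3.65 and 4.17 in Pokkali at 8 h and -1.35 and -2.10 at 0 h, against -1.58 and -1.32 in Nipponbare at 8 h and -2.83 and -3.11 at 0 h. Both transcripts were thus high in Pokkali at 8 h and low in the other 3 groups. The rise of LOC_Os09g09650 was 5.63 in Pokkali and 1.52 in Nipponbare, a difference of 4.11 (SE 0.43, adjusted p = 0.0479).

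The loci with the lowest differences were low in Nipponbare at 0 h alone. LOC_Os11g19864 (chromosome 11) was at 2.47 and 2.63 in Pokkali at 8 h and 2.11 and 1.97 at 0 h, against 4.31 and 5.05 in Nipponbare at 8 h and -1.79 and -3.34 at 0 h. Its change was 0.51 in Pokkali (adjusted p = 0.478) and 7.24 in Nipponbare (adjusted p = 0.00105), a difference of -6.73 (SE 0.70, adjusted p = 0.0479). LOC_Os02g33480 (chromosome 2) was at 0.02 and 0.18 in Pokkali at 8 h and -0.58 and -0.94 at 0 h, against 0.94 and 1.52 in Nipponbare at 8 h and -5.03 and -6.11 at 0 h. The lines lay within 2 log2 units of each other at 8 h and several units apart at 0 h for this locus. Its change was 0.86 in Pokkali (adjusted p = 0.139) and 6.80 in Nipponbare (adjusted p = 0.000955), a difference of -5.94 (SE 0.54, adjusted p = 0.0413), with 7 of 8 arrays above background. With normexp background correction the difference was -3.85. Leaving out 1 array at a time, each of these 4 calls held in 1 of 8 fits: without Pokkali 0 h replicate 1 for the loci on chromosomes 8 and 9, and without Nipponbare 0 h replicate 1 for the others.

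**Figure D2:**
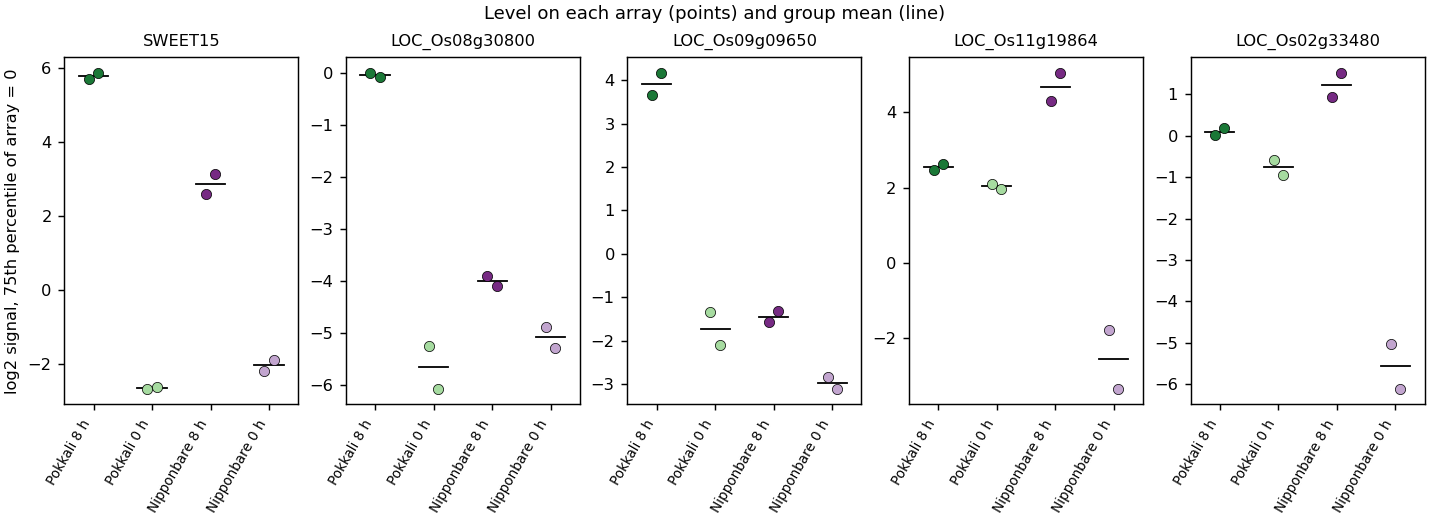
Level of the 5 called loci that are described singly, on each array (points, log2 signal with the 75th percentile of the array at 0) and as the group mean (line), with a vertical scale of its own for each locus. SWEET15, LOC_Os08g30800 and LOC_Os09g09650 were highest in Pokkali at 8 h, and LOC_Os11g19864 and LOC_Os02g33480 were lowest in Nipponbare at 0 h.

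The 40 called loci fell into several patterns, set out in the plot of their change in each line. Among the 21 with a higher change in Pokkali, 10 had Pokkali changes of -0.57 to 0.67 that did not pass and fell in Nipponbare, with changes of -4.17 to -2.03. Another 5 rose in Pokkali by 2.15 to 4.01 and did not pass in Nipponbare, at -0.30 to 0.52. Opposite changes were seen at 3, which rose in Pokkali and fell in Nipponbare, and 3 rose in both lines by more in Pokkali, SWEET15 among them. Among the 19 with a lower change in Pokkali, 10 had Pokkali changes of -0.28 to 0.86 that did not pass and rose in Nipponbare by 2.67 to 7.24. A further 6 fell in Pokkali and rose in Nipponbare, 2 rose in both lines by less in Pokkali, and 1 fell in Pokkali at a Nipponbare change of 0.25. In all, the salt change of 6 loci passed in Pokkali and not in Nipponbare, that of 20 in Nipponbare and not in Pokkali, and that of 14 in both lines, 9 of them in opposite directions. Over all 41371 loci it passed in Pokkali for 28.1%, in Nipponbare for 27.3% and in both lines for 7723 loci, 55 of those in opposite directions. The called loci were picked for a large gap between the 2 changes. Unlike or opposite changes are thus built in, and these counts are no separate evidence.

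**Figure D3:**
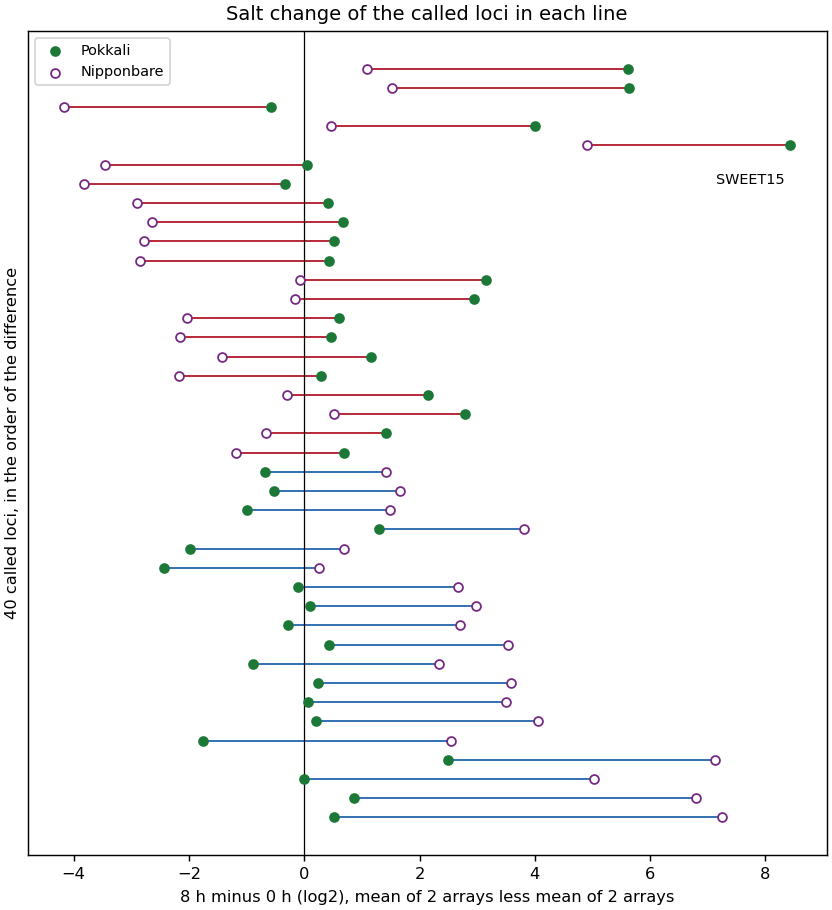
Salt change (8 h minus 0 h, log2) of the 40 called loci in Pokkali (filled) and Nipponbare (open), joined by a line that is red where the change was higher in Pokkali and blue where it was lower, sorted by the difference. Many lines join a Pokkali change near 0 to a Nipponbare change that is negative (red) or positive (blue).

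The lines also differed at single times for most of these loci. Pokkali against Nipponbare passed at 8 h for 35 of the 40 (19.5% of all loci) and at 0 h for 23 (13.8% of all loci), with 18 passing at both times and 5 of those changing sign between the times. These comparisons share their arrays with the difference itself, which is the gap between the lines at 8 h less that at 0 h. Loci called for a large difference must have a large gap at either time, so these shares are no separate evidence. Of the 10 loci that fell in Nipponbare and did not pass in Pokkali, 9 differed between the lines at 0 h, and Pokkali was the lower line at 8 of them. Some of these Pokkali levels were low at both times. They were -5.29 to -4.99 at a locus where Nipponbare was at -5.28 and -5.59 at 8 h, and -5.90 to -4.96 at another. Each of these loci was above background on 7 of 8 arrays, and whether such low levels could still fall was not tested. Of the 10 that rose in Nipponbare and did not pass in Pokkali, 9 differed at 8 h, with Pokkali lower. Each line has 4 pairings of an 8 h with a 0 h array. The changes of the lines over these pairings lay apart at all 40 called loci and at 22.9% of all loci. The called loci were picked on the same arrays, so this adds no support to the calls. All 40 rested on 1 probe each, as most loci did: 2035 of all 41371 had 2 or more kept probes. Of the 40, 34 were above background on every array, against 38601 of all 41371. The calls were spread over all 12 chromosomes, with 6 each on chromosomes 2, 4 and 6 and 1 each on chromosomes 1 and 12. In 2 pairs, neighbouring called loci lay within 100 of each other in locus number, and LOC_Os11g19864 belonged to such a pair.

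Genes with a known part in salt and water relations were read from lists. Of 177 measured list loci whose names could be checked, 1 passed the test of the difference, SWEET15 (0.565%, against 0.0967% of all loci). An unadjusted p under 0.05 in limma was seen at 14 of the 177 (9.24% of all loci). The median difference of the 177 was 0.12, against 0 over all loci, and the 95% interval lay wholly within 1 log2 unit of 0 for 37 of them. These intervals reached a median of 1.06 to either side, against 0.73 over all loci. The remaining genes are therefore given by value and interval, and a value that did not pass does not show that the lines responded alike.

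The aquaporins, water channels of the plasma membrane (PIP) and of the vacuole membrane (TIP), had differences above 0 in most members, none of which passed. All 9 PIP genes had a value above 0, with a median of 0.47, against 49.9% of loci above 0 over the whole array. The median was 0.30 to 0.79 over the alternative processing settings, and the number above 0 was 6 without Nipponbare 0 h replicate 2 and 7 without Pokkali 0 h replicate 1. With salt, 2 PIP genes rose and 2 fell in Pokkali (15.4% and 12.7% of all loci), and 0 rose and 4 fell in Nipponbare (14.8% and 12.5% of all loci). Members of this family resemble each other in sequence, and cross-hybridisation between their probes was not tested.

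PIP2;1 (LOC_Os07g26690) had the smallest p of the aquaporins. Its level was 6.46 and 6.41 in Pokkali at 8 h and 6.71 and 6.84 at 0 h, against 3.57 and 3.60 in Nipponbare at 8 h and 5.01 and 5.34 at 0 h. The Pokkali levels were close to each other at the 2 times, whereas the Nipponbare levels were clearly lower at 8 h. The change was -0.34 in Pokkali (adjusted p = 0.163) and -1.59 in Nipponbare (adjusted p = 0.00193), and the difference was 1.25 (SE 0.23, 95% interval 0.70 to 1.79), with an adjusted p of 0.153. PIP2;5 (LOC_Os07g26660) fell by 0.87 in Pokkali and by 1.85 in Nipponbare, a difference of 0.98 (adjusted p = 0.45). PIP1;1 (LOC_Os02g44630) and PIP1;2 (LOC_Os04g47220) rose in Pokkali, by 0.71 and 0.74, and had Nipponbare changes of 0.30 and 0.42 that did not pass. Among the 5 vacuolar genes TIP2;1 (LOC_Os02g44080) fell in both lines, by 2.51 in Pokkali and by 4.37 in Nipponbare. Its difference was 1.86 with a wide interval of 0.24 to 3.48 (adjusted p = 0.459). Its levels were -3.40 and -3.25 in Pokkali at 8 h and -1.42 and -0.20 at 0 h, against -4.18 and -3.42 in Nipponbare at 8 h and 0.17 and 0.98 at 0 h.

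**Figure D4:**
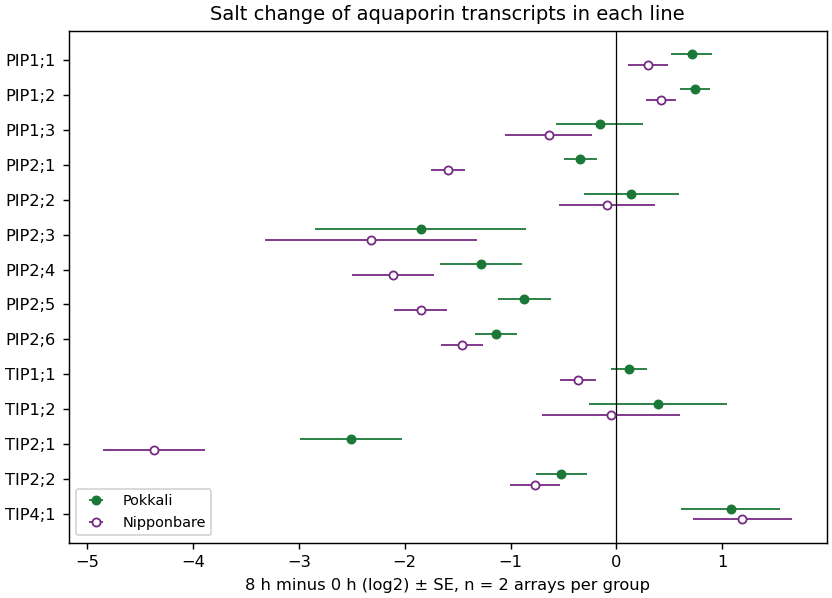
Salt change (8 h minus 0 h, log2, with SE as bars, n = 2 arrays per group) of 9 plasma membrane (PIP) and 5 vacuolar (TIP) aquaporins in Pokkali (filled) and Nipponbare (open). The Pokkali point lies to the right of the Nipponbare point for all genes but TIP4;1, and none of the differences passed.

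The protective proteins LEA3 and RAB16C and the salt marker SALT rose in both lines by amounts whose difference did not pass. LEA3 (LOC_Os05g46480), a late embryogenesis abundant protein, was at 6.30 and 6.88 in Pokkali at 8 h and 0.74 and -0.30 at 0 h, against 4.07 and 5.47 in Nipponbare at 8 h and 0.57 and -1.21 at 0 h. It rose by 6.37 in Pokkali and 5.09 in Nipponbare, and the difference of 1.29 had an interval of -1.16 to 3.74. The dehydrin RAB16C (LOC_Os11g26760) was at 4.03 and 3.35 in Pokkali at 8 h and -2.77 and -2.07 at 0 h, against 3.54 and 4.16 in Nipponbare at 8 h and -1.76 and -1.99 at 0 h. The 8 h levels of the lines overlapped for this gene, and the rises of 6.11 in Pokkali and 5.73 in Nipponbare differed by 0.38 (-0.81 to 1.57). SALT (LOC_Os01g24710), a mannose-binding lectin, was at -2.82 and -2.29 in Pokkali at 8 h and -6.06 and -5.71 at 0 h, against -1.95 and -1.53 in Nipponbare at 8 h and -5.70 and -6.75 at 0 h. It rose by 3.33 in Pokkali and 4.49 in Nipponbare, a difference of -1.16 (-2.45 to 0.13), with 6 of 8 arrays above background. In the LEA and dehydrin list 4 of 5 genes rose in each line (15.4% of all loci in Pokkali and 14.8% in Nipponbare). Among them, RAB16B (LOC_Os11g26780) rose by 2.06 in Pokkali and 2.61 in Nipponbare (difference -0.55, adjusted p = 0.723 in limma).

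Most genes of the SnRK2 kinase and clade A PP2C phosphatase families rose in both lines. Of the 10 SnRK2 kinases 7 rose in each line (15.4% of all loci in Pokkali and 14.8% in Nipponbare). Of the 9 clade A PP2C phosphatases, which hold the SnRK2 kinases of abscisic acid signalling inactive, 6 rose in each line, and none of the 19 differences passed. SAPK1 (LOC_Os03g27280), a SnRK2 kinase, was at -0.14 and 0.01 in Pokkali at 8 h and -2.40 and -2.53 at 0 h, against 0.73 and 0.99 in Nipponbare at 8 h and -0.84 and -0.89 at 0 h. It was lower in Pokkali at either time and rose by 2.40 there and by 1.72 in Nipponbare, a difference of 0.67 (0.14 to 1.20, adjusted p = 0.401). PP2C50 (LOC_Os05g46040) rose by 2.96 in Pokkali and 2.73 in Nipponbare, and PP2C68 (LOC_Os09g15670) by 4.08 in Pokkali and 3.96 in Nipponbare. The SnRK2 counts fell to 2 without Pokkali 8 h replicate 2 for Pokkali and to 1 without Nipponbare 8 h replicate 2 for Nipponbare, and the PP2C counts to 2 in the same fits.

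Differences of the enzymes that make and break down the hormone did not pass. NCED3 (LOC_Os03g44380), which makes its precursor, rose by 2.76 in Pokkali and 2.57 in Nipponbare, a difference of 0.19 (-1.79 to 2.17). The hydroxylase ABA8OX2 (LOC_Os08g36860), which inactivates it, had changes of 0.60 in Pokkali and -0.10 in Nipponbare that did not pass, and a difference of 0.70 (0.06 to 1.34, adjusted p = 0.484). The bZIP factors BZIP23 (LOC_Os02g52780) and TRAB1 (LOC_Os08g36790) had differences of 0.26 and 0.11. NAC5 (LOC_Os11g08210), a stress transcription factor, was at 3.31 and 3.23 in Pokkali at 8 h and 1.32 and 1.46 at 0 h, against 3.22 and 3.46 in Nipponbare at 8 h and 1.07 and 1.55 at 0 h. Its levels overlapped between the lines at either time, and the difference was -0.15 (-0.83 to 0.53).

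Ion transporters and osmolyte genes did not pass either. HKT1;5, which removes sodium from the xylem, and HKT1;4 were among the loci left out. HKT2;1 (LOC_Os06g48810), a sodium transporter of roots, was at -0.70 and -1.01 in Pokkali at 8 h and -0.96 and -2.98 at 0 h, against -0.89 and -0.75 in Nipponbare at 8 h and -0.32 and -2.91 at 0 h. Its 0 h replicates lay about 2 log2 units or more apart in each line, with replicate 2 the lower in both. The fit holds no replicate number, so this shared shift counted as spread. The difference of 0.31 had an interval of -2.83 to 3.46. HKT1;3 (LOC_Os02g07830) fell in both lines, 16.6-fold in Pokkali and 12.1-fold in Nipponbare, a difference of -0.45 (-2.32 to 1.41). The potassium channel AKT1 (LOC_Os01g45990) fell by 1.03 in Pokkali and had a change of -0.31 in Nipponbare that did not pass, a difference of -0.73 (-1.48 to 0.03, adjusted p = 0.566). CIPK24 (LOC_Os06g40370), the kinase that activates the sodium exporter SOS1, had a difference of -0.21 (-1.21 to 0.79). P5CS1 (LOC_Os05g38150), of proline synthesis, rose by 0.98 in Pokkali and had a change of 0.56 in Nipponbare that did not pass. Its difference was 0.42 (-0.17 to 1.02). Its levels were -0.63 and -0.74 in Pokkali at 8 h and -1.80 and -1.53 at 0 h, against -1.60 and -1.49 in Nipponbare at 8 h and -2.26 and -1.95 at 0 h. Pokkali was higher on these arrays at either time, by 0.86 at 8 h (adjusted p = 0.0182 in limma). The gap of 0.44 at 0 h did not pass (adjusted p = 0.163 in limma). BADH2 (LOC_Os08g32870), a betaine aldehyde dehydrogenase, had a difference of 0.54 (0.07 to 1.01, adjusted p = 0.462).

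Clock genes had values below 0 in 6 of 7 measured members, with a median of -0.37, and none passed. Over the whole array 49.9% of loci lay above 0. Over the alternatives the median of the clock genes was -0.48 to -0.19, with 0 to 2 members above 0. PRR37 (LOC_Os07g49460), a pseudo-response regulator of the clock that also delays flowering in long days, was at 0.29 and 0.56 in Pokkali at 8 h and 1.00 and 0.92 at 0 h, against 0.24 and 0.37 in Nipponbare at 8 h and -0.17 and -0.63 at 0 h. The lines overlapped at 8 h and were apart at 0 h, where Pokkali was higher by 1.36 (adjusted p = 0.00651). Its change was -0.54 in Pokkali and 0.71 in Nipponbare (adjusted p = 0.0412), a difference of -1.25 (SE 0.28, -1.92 to -0.57, adjusted p = 0.219). PRR1 (LOC_Os02g40510) rose by 2.41 in Pokkali and 3.02 in Nipponbare (difference -0.61, adjusted p = 0.487). LUX (LOC_Os01g74020), also known as PCL1, was the member above 0, at 2.24 with an interval of -1.02 to 5.50 and 6 arrays above background.

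Among hormone genes outside abscisic acid, ACS1 (LOC_Os03g51740), a synthase of the ethylene precursor, was at 1.17 and 1.52 in Pokkali at 8 h and -1.73 and -1.31 at 0 h, against -1.07 and -0.26 in Nipponbare at 8 h and -2.25 and -1.62 at 0 h. It rose by 2.86 in Pokkali and by 1.27 in Nipponbare, and Pokkali was higher at 8 h by 2.01 (adjusted p = 0.0105), but the difference of 1.59 (0.41 to 2.77) did not pass (adjusted p = 0.363). Jasmonate genes had wide intervals. AOS2 (LOC_Os03g12500), of jasmonate synthesis, had a difference of 0.49 (-1.55 to 2.53), and TIFY11E (LOC_Os10g25230), a jasmonate repressor, 1 of 0.39 (-1.44 to 2.22). For AOS2 and TIFY11E, replicate 2 was the higher at 0 h in each line, a shared shift that the fit counted as spread. The difference was 0.56 (-0.71 to 1.82) for the gibberellin enzyme SD1 (LOC_Os01g66100) and 0.20 (-0.75 to 1.14) for the cytokinin response regulator RR1 (LOC_Os04g36070).

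Transcripts of carbon fixation and chlorophyll synthesis fell in both lines. The small subunit of the carbon-fixing enzyme Rubisco, RBCS1 (LOC_Os12g17600), was at 3.90 and 3.03 in Pokkali at 8 h and 5.34 and 5.49 at 0 h, against 2.23 and 1.67 in Nipponbare at 8 h and 5.03 and 5.17 at 0 h. The lines were clearly apart at 8 h and close at 0 h. Rice holds several closely related RBCS genes, and cross-hybridisation among them was not tested. RBCS1 fell by 1.95 in Pokkali and by 3.15 in Nipponbare, a difference of 1.20 (0.11 to 2.28, adjusted p = 0.484). RCA (LOC_Os11g47970), which keeps Rubisco active, fell 4.58-fold in Pokkali and 8.59-fold in Nipponbare, a difference of 0.91 on the log2 scale (-0.01 to 1.82, adjusted p = 0.546). The antenna gene CAB1R (LOC_Os09g17740) had a Pokkali change of -0.46 that did not pass and fell 2.15-fold in Nipponbare. Its difference was 0.64 (adjusted p = 0.447 in limma), while CAB2R (LOC_Os01g41710) and RCABP89 (LOC_Os03g39610) had differences of -0.20 and -0.27. Of 7 chlorophyll synthesis genes 6 fell in each line (12.7% of all loci in Pokkali and 12.5% in Nipponbare). PORA (LOC_Os04g58200), which makes chlorophyllide in the light, fell by 3.85 in Pokkali and by 5.14 in Nipponbare (difference 1.29, -0.38 to 2.96). All 4 chlorophyll breakdown genes rose in each line (15.4% of all loci in Pokkali and 14.8% in Nipponbare). RCCR1 (LOC_Os10g25030), a late enzyme of that route, rose by 3.78 in Pokkali and 4.13 in Nipponbare, and the difference of -0.34 (-1.50 to 0.81) did not pass.

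Many growth genes fell in both lines. Over all loci, 12.7% fell in Pokkali and 12.5% in Nipponbare. All 5 measured cell division genes fell in Pokkali and 4 in Nipponbare, with the kinase CDKB1 (LOC_Os01g67160) at a difference of -0.28 (-0.76 to 0.21). Of 7 measured cellulose synthases 4 fell in each line, CESA1 (LOC_Os05g08370) by 1.41 in Pokkali and by 1.98 in Nipponbare (difference 0.56, -0.47 to 1.60). Of 8 expansins, which loosen cell walls, 5 fell in Pokkali and 4 in Nipponbare, and EXPA4 (LOC_Os05g39990) had the smallest p, at a difference of 1.16 (-0.02 to 2.35, adjusted p = 0.553).

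In the remaining lists no gene passed the test of the difference. The difference of the member with the smallest p of each stood as follows. WRKY62 (LOC_Os09g25070), a transcription factor of defence, was at 1.11 (-0.31 to 2.54), and PBZ1 (LOC_Os12g36880), a pathogenesis-related protein, at 0.89 (-0.57 to 2.34). DREB1A (LOC_Os09g35030), a cold and drought factor, was at -0.38 (-1.19 to 0.44), and the chaperone HSP101 (LOC_Os05g44340) at -0.42 (-1.09 to 0.26). APX1 (LOC_Os03g17690), which removes hydrogen peroxide, was at 0.39 (-0.25 to 1.03). NAR2.1 (LOC_Os02g38230), a partner of nitrate transporters, fell in both lines and was at -0.72 (-1.71 to 0.28), and NAS1 (LOC_Os03g19427), which makes the iron carrier nicotianamine, fell in both lines and was at 0.71 (-2.34 to 3.76). HKT1;1 (LOC_Os04g51820) was at 0.98 (-0.97 to 2.94), the phosphatase PP2C53 (LOC_Os05g51510) at 0.33 (-0.39 to 1.04) and the photosystem I subunit PSAH (LOC_Os05g48630) at 0.27 (-0.29 to 0.82). ZEP (LOC_Os04g37619), of abscisic acid synthesis, was at -0.10 (-0.75 to 0.55), and TPP2 (LOC_Os10g40550), a trehalose phosphate phosphatase, at 0.10 (-0.82 to 1.02).

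The list genes with a checked name that had no measured difference were CESA3, CESA9, LHY, HKT1;4, HKT1;5, IRT1, YSL15, RAB21 (also known as RAB16A), RAB16D, NRT2.1, NRT2.2 and P5CS2, which are not analysed here.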

How the data were processed

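Feature Extraction 10.7.1.1 was the authors' scanner software, per the file headers. Its deposited tables hold a linear processed signal intensity per spot, background-subtracted and detrended within the array, with no scaling from array to array. The deposited flags (well above background, outlier, saturated, control) are other columns, 0 or 1 per spot. The intensity in the deposited series table was identical (100% of values equal). The array design used the IRGSP5 genome, per the file headers.

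Control spots and outlier spots were left out, log2 intensity was set to 0 at each array's 75th percentile, and spots were averaged per probe and kept probes per locus. A probe with repeated spots counted as above background where a share of over 0.5 of its spots was flagged so. The model held the 4 group means (limma 3.58.1, R 4.3.3; lmFit, contrasts.fit and eBayes, with 4 residual and 2.49 prior degrees of freedom, prior SD 0.202). Tests were two-sided, with Benjamini-Hochberg adjustment over all 41371 loci and a threshold of 0.05. The fit was tested on simulated data with independent noise on each array. In the real data, same-numbered arrays of the lines deviated together at 0 h (correlation 0.60), which the simulation did not cover. There was 1 slide and 1 scan, with the lines in different rows and the times in different columns, so array position and group cannot be told apart and a slide block could not be fitted. The number of arrays limits the precision: 2 against 2 allow no two-sided exact permutation p below 0.333. P-values measure the spread between these samples.

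The members and lists were chosen with earlier results of these data known. The arrays name loci only by identifier, and the RefSeq gene table (assembly ASM3414082v1) held 0 of these. List names come from general knowledge, and 189 of 279 were checked: RefSeq holds the symbol once on the chromosome of the identifier, in the same gene order. Only these were named or counted by list; over all 263 measured list loci 1 passed. The rule named the loci with the largest called differences (by identifier, 2 per direction), called list members, the smallest p of each list and known salt markers. Genes outside it (SUS1, SUT1, SWEET4, SWEET13, SWEET14, RAMY3D, PIP2;5, PIP1;1, PIP1;2, PP2C50, PP2C68, NCED3, TRAB1, HKT1;3, PRR1, LUX, RCA, LSI2, CAB2R and RCABP89) were chosen after their values were seen. The number of one Nipponbare 8 h sample, 2 in its title and 1 in its description, was taken from the title. Replicate numbers are not in the fit, since the labels state no pairing of the arrays. Deviations of same-numbered arrays did correlate between the lines, at 0.60 at 0 h and 0.30 at 8 h. Alternatives were the scaling, background correction, filters, probe choice, eBayes options, replicate blocks and left-out arrays.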

Additional observations from a re-analysis of the deposited data

Results flagged for a closer look

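At 5 of the loci described singly, the test of the difference between the lines in their salt response passed, and each is listed for that reason. The difference was -6.73 for LOC_Os11g19864, -5.94 for LOC_Os02g33480, 4.53 for LOC_Os08g30800, 4.11 for LOC_Os09g09650 and 3.53 for SWEET15, in log2 units. Each rested on 1 probe, and each call was lost without any of 7 of the 8 arrays in turn.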

How the results depend on the processing

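The number of calls (21 higher and 19 lower in Pokkali) moved with the processing. Normexp on the mean signals and a slide block were not run; normexp on the median signals, chosen after seeing the data, gave 44 higher and 45 lower. Probes bright on both arrays of at least 1 group gave 78 and 56. Other scalings, filters, probe choices and eBayes options gave 33 to 55 calls. Without 1 array the counts ran from 0 to 77 higher and from 0 to 13 lower. Without replicate 1 of both lines at 0 h there were 86 and 18, and without replicate 2 of both 1 and 1. The replicate block over all arrays gave 4 and 6, and the replicate block within time gave 0 and 0, with 7554 loci at an unadjusted p under 0.05 and a lowest adjusted p of 0.0781 in limma. Deviations of arrays with the same number correlated at 0.60 between the lines at 0 h, 0.30 at 8 h and 0.07 to 0.14 across times. With no scaling between arrays the median difference of all loci was 0.07. The causes were not tested.

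No gene that the rule named and that missed the threshold passed under any alternative. Small differences turned sign in some: ZEP was at 0.06 with the brightest probe, NAC5 at 0.03, RR1 at -0.03 and RAB16C at -0.08 without replicate 1 of both lines at 0 h, and AOS2 at -0.10 and TIFY11E at -0.11 without replicate 2 of both. Without 1 array, 12 of the genes that the rule named turned sign (genes outside the rule are not counted): AOS2 ran from -0.49 to 1.47, BZIP23 from -0.27 to 0.79, CIPK24 from -0.57 to 0.15, HKT2;1 from -0.98 to 1.61, LSI1 from -0.25 to 0.05, NAC5 from -0.39 to 0.09, NAS1 from -0.44 to 1.86, RCCR1 from -0.72 to 0.04, RR1 from -0.13 to 0.52, TIFY11E from -0.47 to 1.24, TPP2 from -0.22 to 0.42 and ZEP from -0.33 to 0.12. Probes close to background limit what could be measured, and groups of 2 arrays limit the size of difference that could pass.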
